A study of Homo sapiens with 8 samples.

Results

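The BCL2 family of survival and death genes was examined through 8 of its members, namely BCL2, BCL2L1, MCL1, BCL2L11, BAX, BAK1, BBC3 and PMAIP1. Each gene was represented by 1 given GRCh37 start site, and all sequence called as carrying H3K4me3 (histone H3 trimethylated at lysine 4, a mark of active promoters) was counted in a window reaching 5 kb to either side of it. All 8 genes had called sequence in that window in every library, out of 50523 merged regions called in any library and 13729 called in all 8. The genes were named without use of measured values, although earlier results of these data were known when they were named.

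The study mapped H3K4me3 by chromatin immunoprecipitation and sequencing (ChIP-seq) in MM1S, an established human multiple myeloma line. KDM5-C70 inhibits the KDM5 histone demethylases, enzymes that remove methyl groups from this lysine. There were 3 libraries of cells given 50 uM KDM5-C70 for 7 days and 5 libraries of cells given DMSO, the vehicle, with no duration in the labels, and nothing else in the labels separates the groups. All libraries come from this 1 line, and the labels do not say that they are separate cultures, so each p-value measures only the spread between these libraries, which may be technical.

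The proteins of this family decide at the mitochondrial outer membrane whether a cell survives. BCL2, BCL-XL (the main product of BCL2L1) and MCL1 hold cells alive by binding their pro-death relatives. BAX and BAK1 are the effectors, which make pores in the membrane and release cytochrome c, and the BH3-only proteins BIM (BCL2L11), PUMA (BBC3) and NOXA (PMAIP1) set them free or activate them. Myeloma cells are known for their reliance on MCL1, and some myelomas rely on BCL2. At active genes H3K4me3 lies on the nucleosomes around the start site, often with a nucleosome-poor stretch at the start itself.

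At BCL2, BCL2L1 and BCL2L11 the treated cells had fewer bases in inner segments (the narrower stretches marked inside each called region) than any DMSO library, with 869, 629 and 1335 bp on average in KDM5-C70 libraries, against 1786, 1631 and 2030 bp in DMSO libraries. This was so at 3 of 8 genes, and in 2.12% of windows of the same size centred on the regions called in all 8 libraries. Among windows with at least 2000 called bp on average over the 8 libraries, as at these 3 genes, it was so in 6.37%. At BCL2L11 the start site itself lay in called sequence in 0 of 3 KDM5-C70 libraries, against 5 of 5 DMSO libraries. Its region was continuous in every DMSO library and interrupted in every KDM5-C70 library. The same held for 0.182% of regions called in all 8 libraries, and for 1.25% of those with at least 2000 called bp on average. At BCL2L1 a stretch of 493 bp downstream of the start was called throughout the DMSO group and in none of the treated libraries. At least 200 bp of that kind occurred in 0.539% of all windows, and the share among those with at least 2000 called bp was not computed. MCL1, BBC3, PMAIP1, BAX and BAK1 had overlapping values in the 2 groups in all 3 measures. No gene of the 8 was higher in all KDM5-C70 libraries than in all DMSO libraries in any of them. When all regions were tested together, with adjustment over all of them, no region (0%) passed the threshold of 0.05, these genes included. For inner width, BCL2L1 and BCL2 passed once libraries were centred on their medians, as did 0.172% of all regions, or once the fit had a term for 2 sets of libraries seen in these data, as did 1.64%.

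Called bases are all bases of a window that lie in the regions of a library's list. Inner bases are those in the narrower segments that the authors' list marks inside each region, and the inner share is inner bases in percent of called bases. Over whole lists the inner share was 58.4%, 58.2% and 56.5% in KDM5-C70 1 to 3, against 68.2%, 69.3%, 76.3%, 68.3% and 71.7% in DMSO 1 to 5, so lower inner shares in KDM5-C70 libraries are a feature of the whole lists. The lists also differ in length. KDM5-C70 1, DMSO 1 and DMSO 2 hold between 15323 and 20998 regions and the other 5 lists between 28195 and 37948, and results are therefore also given within each of these sets of libraries. The depth of the libraries is unknown, so sequence outside a list is only uncalled and may still carry the mark.

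The letters of the start sites differ among the members in their number of CpG dinucleotides, the context in which H3K4me3 is usually found at promoters. RefSeq promoters (GRCh38.p14, from 250 bases before to 50 bases after each listed start) matched 7 of the 8 genes, all but MCL1, and BCL2L1 has 2 listed starts that lie 1095 bp apart. The sequences below are shown for BCL2L11, BCL2L1, BAX and BBC3. Stretches of 566 bp at BCL2L11 and 493 bp at BCL2L1 were called throughout the DMSO group alone. That of BCL2L11 lay over the start, and that of BCL2L1 began 1168 bp downstream of the given start. BCL2, not shown, had a shorter stretch of this kind, 62 bp long and 699 to 638 bp upstream. At the effector BAX a short stretch upstream of the start was called in treated cells alone. At BBC3 no library had any called sequence at the start. The sequences run 5′ to 3′ along the gene, with CpG in capitals. For BCL2L1 the upstream one of the 2 listed starts is shown. Which of these corresponds to the given GRCh37 start of BCL2L1 was not determined, and all its distances are from the given start. Coordinates on this build were not converted to GRCh37, so bases of the promoters were not matched to positions in the lists.
BCL2L11 (chr2:111120664-111120963, plus strand): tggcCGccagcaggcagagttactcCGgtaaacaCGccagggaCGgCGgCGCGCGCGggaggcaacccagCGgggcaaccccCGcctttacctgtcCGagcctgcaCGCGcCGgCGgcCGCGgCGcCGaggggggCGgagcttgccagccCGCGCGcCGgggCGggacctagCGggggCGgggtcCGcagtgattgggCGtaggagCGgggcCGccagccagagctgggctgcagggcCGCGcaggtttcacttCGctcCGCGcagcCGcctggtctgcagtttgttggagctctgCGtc
BCL2L1 (chr20:31723914-31724213, minus strand): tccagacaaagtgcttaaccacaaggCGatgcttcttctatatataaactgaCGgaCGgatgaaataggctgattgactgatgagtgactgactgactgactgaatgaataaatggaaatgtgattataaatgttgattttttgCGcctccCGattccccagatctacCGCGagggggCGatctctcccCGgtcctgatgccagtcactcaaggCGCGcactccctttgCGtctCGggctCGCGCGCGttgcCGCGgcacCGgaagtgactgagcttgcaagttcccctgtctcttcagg
BAX (chr19:48954625-48954924, plus strand): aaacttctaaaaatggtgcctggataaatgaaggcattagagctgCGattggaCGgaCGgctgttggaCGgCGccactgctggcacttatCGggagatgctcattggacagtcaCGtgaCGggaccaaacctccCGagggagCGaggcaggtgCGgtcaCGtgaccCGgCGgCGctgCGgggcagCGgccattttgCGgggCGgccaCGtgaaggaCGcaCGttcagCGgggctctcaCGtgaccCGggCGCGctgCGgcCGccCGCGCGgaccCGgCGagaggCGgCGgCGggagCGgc
BBC3 (chr19:47232618-47232917, minus strand): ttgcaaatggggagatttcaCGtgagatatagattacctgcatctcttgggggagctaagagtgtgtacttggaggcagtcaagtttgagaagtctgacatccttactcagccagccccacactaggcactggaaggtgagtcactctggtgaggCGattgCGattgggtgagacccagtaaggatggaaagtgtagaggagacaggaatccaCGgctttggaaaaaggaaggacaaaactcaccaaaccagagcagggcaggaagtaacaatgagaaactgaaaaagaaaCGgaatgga

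The BCL2L11 promoter has 39 CpG and that of BAX has 38, while the upstream BCL2L1 promoter has 20 and that of BBC3 has 5. The median over the 35116 promoters in the table is 14. Among the members not shown, PMAIP1 has 42 CpG, BCL2 has 31, the downstream BCL2L1 start has 16 and BAK1 has 7. Searched on both strands, the E-box CACGTG (a palindrome, counted 1 time per match) was found 4 times in the BAX promoter and 1 time in that of BBC3, and 7.26% of all promoters in the table hold it. TATAAA was found 2 times at the upstream BCL2L1 start and in no other member promoter, against 11.5% of all promoters. CCAAT was found at BCL2L11, BAX, BAK1 and BBC3 (34.6% of all promoters) and GGGCGG at the downstream BCL2L1 start, BCL2L11, BAX, BAK1 and PMAIP1 (45.0% of all promoters). A match is a run of letters and not a site shown to be used.

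**Figure D1:**
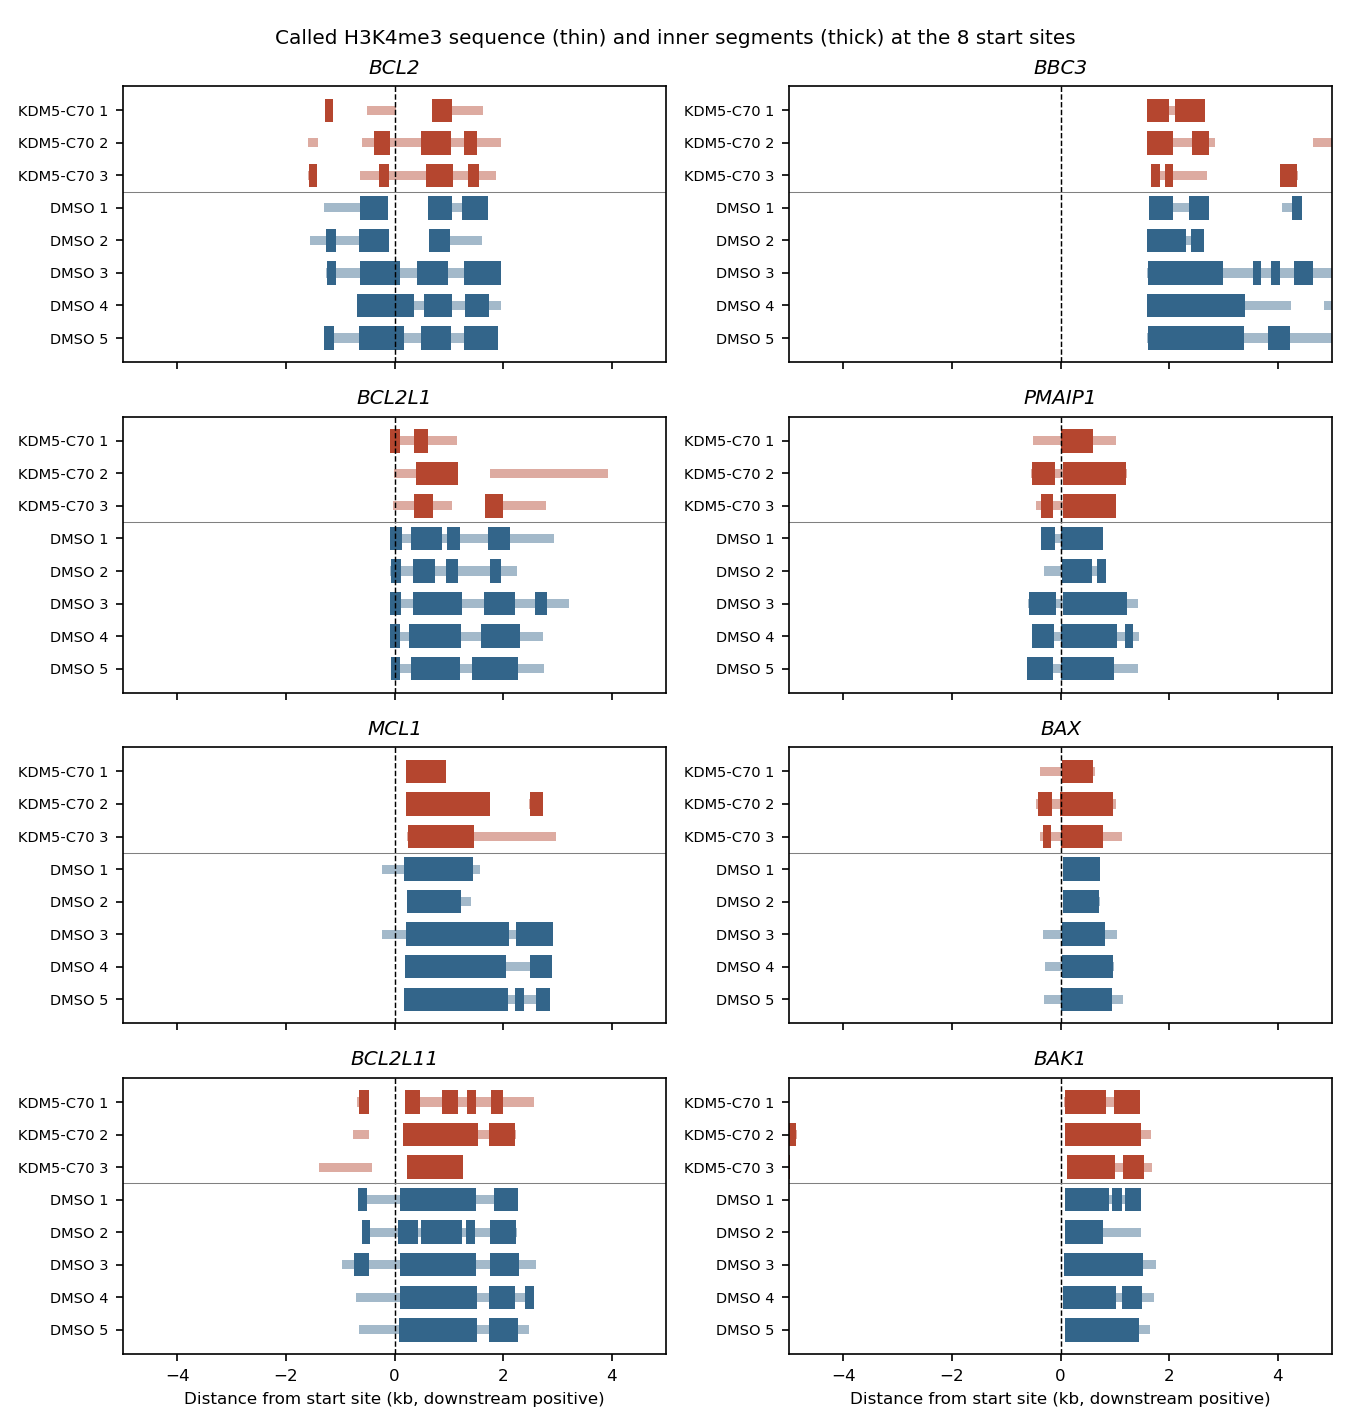
Called H3K4me3 sequence (thin bars) and inner segments (thick bars) in each library, with the 3 KDM5-C70 libraries above the 5 DMSO libraries, against distance from the start site in kb with downstream positive. BCL2L11 has an uncalled stretch over the start site in all 3 KDM5-C70 libraries and in no DMSO library, while BBC3 has no called base within 500 bp of its start in any library.

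The survival genes were taken first. BCL2, the founding member of the family, had 503, 1093 and 1011 inner bp in KDM5-C70 1 to 3, against 1431, 1136, 2164, 2024 and 2177 inner bp in DMSO 1 to 5. All 3 KDM5-C70 libraries were below all 5 DMSO libraries, although KDM5-C70 2 lay only 43 bp below DMSO 2. The mean was 869 ± 320 bp in KDM5-C70 (SD, n = 3) and 1786 ± 475 bp in DMSO (SD, n = 5), a difference of -917 bp with an exact permutation p of 0.0357. That is the smallest 2-sided p that the 56 ways of dividing 8 libraries into 3 and 5 allow. In all, 24 such tests were made, 3 for each gene, and their p-values are not adjusted.

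Called sequence as a whole was not set apart at BCL2. It came to 1633, 2721 and 2671 bp in KDM5-C70 1 to 3, against 2282, 2417, 3239, 2659 and 3200 bp in DMSO 1 to 5, and the groups overlapped (difference -418 bp, exact permutation p = 0.357). Without KDM5-C70 1 the difference was -63.4 bp. The inner share was 30.8%, 40.2% and 37.9% in KDM5-C70 1 to 3, against 62.7%, 47.0%, 66.8%, 76.1% and 68.0% in DMSO 1 to 5. Every KDM5-C70 value was below every DMSO value, with a difference of -27.9 percentage points and an exact permutation p of 0.0357. With each library centred on the median share of all regions it was -15.1 points (limma adjusted p = 0.582). Within the shorter lists the difference in inner bases was -781 bp and within the longer lists -1070 bp.

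The layout at BCL2 differed too. The start site was called in 3 of 3 KDM5-C70 libraries and in 3 of 5 DMSO libraries, but lay in an inner segment in 0 of 3 KDM5-C70 libraries and in 3 of 5 DMSO libraries. A stretch of 254 bp, from 634 to 381 bp upstream (chr18:60986994-60987247, GRCh37), was inner sequence throughout the DMSO group and in none of the treated libraries. DMSO 1 and DMSO 2 left 736 and 738 bp uncalled over the start, a gap that the other 3 DMSO lists did not have, so the DMSO libraries were not alike here.

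BCL2L1 encodes BCL-XL, and its shorter splice form encodes a protein that promotes death. It had 438, 762 and 687 inner bp in KDM5-C70 1 to 3, against 1447, 1021, 1899, 1869 and 1918 inner bp in DMSO 1 to 5. The highest KDM5-C70 value was 259 bp below the lowest DMSO value. The mean was 629 ± 170 bp in KDM5-C70 (SD, n = 3) and 1631 ± 393 bp in DMSO (SD, n = 5), a difference of -1002 bp (exact permutation p = 0.0357), which was the largest difference of the 8 genes in inner bases. Within the shorter lists it was -796 bp and within the longer lists -1171 bp.

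The inner share of BCL2L1 was 35.6%, 22.6% and 30.9% in KDM5-C70 1 to 3, against 47.7%, 43.8%, 57.5%, 66.3% and 68.3% in DMSO 1 to 5. The groups did not overlap (difference -27.0 points, exact permutation p = 0.0357), and with the same centring the difference was -14.3 points (limma adjusted p = 0.673). In a window of 2 kb to either side the difference in share was -21.9 points and its exact permutation p 0.0714. Called sequence came to 1231, 3365 and 2220 bp in KDM5-C70 1 to 3, against 3031, 2331, 3304, 2819 and 2809 bp in DMSO 1 to 5. KDM5-C70 2 had more than every DMSO library, so the groups overlapped (difference -587 bp, exact permutation p = 0.321). The difference was -66.3 bp without KDM5-C70 1 and -1133 bp without KDM5-C70 2. Its called sequence reached 3937 bp downstream of the start, and within 2 kb of the start the groups separated, with a difference of -715 bp and an exact permutation p of 0.0357.

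In every DMSO library BCL2L1 had 1 unbroken called region, from 92 to 59 bp upstream of the start to between 2251 and 3215 bp downstream. These regions were as wide as or wider than 99.0 to 99.8% of all regions in their own lists. In the KDM5-C70 libraries the called sequence broke off or was interrupted, and the widest regions there, of 1231, 2179 and 1121 bp, stood at 77.7%, 92.6% and 65.9% of their lists. The 493 bp from 1168 to 1660 bp downstream (chr20:30309996-30310488, GRCh37) were those called throughout the DMSO group alone. KDM5-C70 1 ended upstream of this stretch, while KDM5-C70 2 and KDM5-C70 3 resumed beyond it. The start site lay in an inner segment in 1 of 3 KDM5-C70 libraries and in 5 of 5 DMSO libraries.

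MCL1, a survival protein with a short half-life, had 734, 1766 and 1218 inner bp in KDM5-C70 1 to 3, against 1263, 988, 2588, 2264 and 2335 inner bp in DMSO 1 to 5. The groups overlapped, with means of 1239 ± 516 bp in KDM5-C70 (SD, n = 3) and 1888 ± 713 bp in DMSO (SD, n = 5), and an exact permutation p of 0.214. DMSO 1 and DMSO 2, with short lists, were lowest of the DMSO libraries, and KDM5-C70 1 was lowest of its group. KDM5-C70 3, however, has the longest list and was below KDM5-C70 2 and DMSO 1. Whether the length of the lists enters these values was not tested. Within the shorter lists the KDM5-C70 library had 734 bp, against a mean of 1126 bp in the DMSO libraries, and within the longer lists the means were 1492 bp in KDM5-C70 and 2396 bp in DMSO, without overlap in either set. Inner bases were lower in both sets in 17.4% of all windows.

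Called sequence at MCL1 came to 739, 1787 and 2739 bp in KDM5-C70 1 to 3, against 1816, 1190, 3155, 2709 and 2693 bp in DMSO 1 to 5, and overlapped (difference -558 bp, exact permutation p = 0.464). The difference was -49.6 bp without KDM5-C70 1, -1050 bp without KDM5-C70 3, -838 bp without DMSO 2 and -347 bp without DMSO 3. Its inner share was 99.3%, 98.8% and 44.5% in KDM5-C70 1 to 3, against 69.5%, 83.0%, 82.0%, 83.6% and 86.7% in DMSO 1 to 5. The KDM5-C70 values fell on both sides of all DMSO values (means 80.9% and 81.0%, exact permutation p = 0.964). The called sequence began 207 to 237 bp downstream of the start in the KDM5-C70 libraries and 179 to 226 bp downstream in DMSO 2, DMSO 4 and DMSO 5. In DMSO 1 and DMSO 3 it began 238 and 231 bp upstream.

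**Figure D2:**
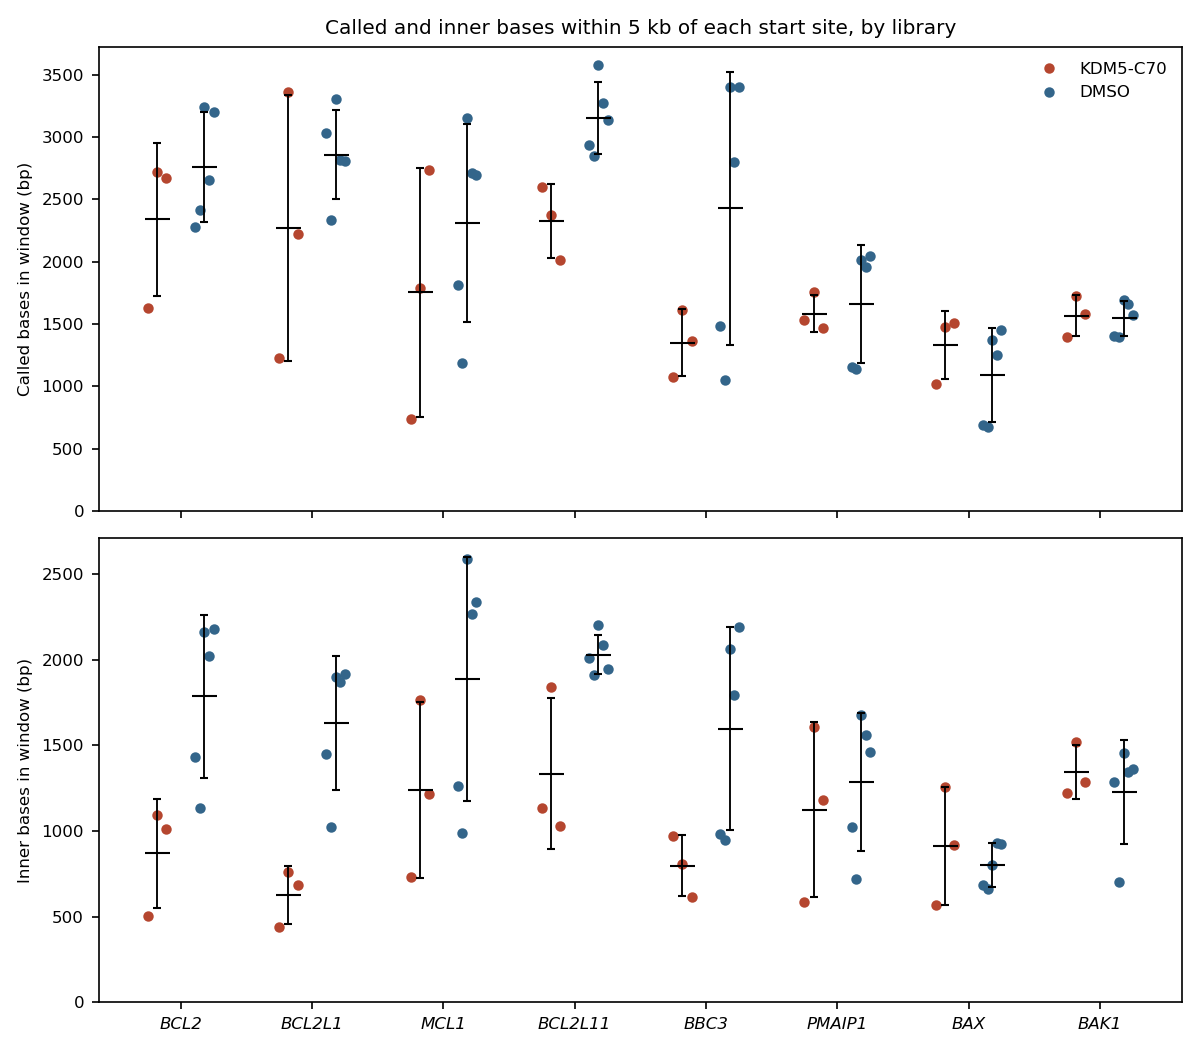
Called bases (top) and inner bases (bottom) in base pairs within 5 kb of each start site, 1 point per library, KDM5-C70 left of DMSO, with bars for the mean and SD. Inner bases of BCL2, BCL2L1 and BCL2L11 lie below all DMSO libraries in all 3 KDM5-C70 libraries, and the other 5 genes overlap.

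Among the BH3-only genes, BCL2L11, which encodes BIM, a binder of all the survival proteins, had the widest called sequence of the 8 genes in DMSO cells. Its called sequence came to 2599, 2379 and 2012 bp in KDM5-C70 1 to 3, against 2936, 2848, 3577, 3276 and 3138 bp in DMSO 1 to 5. All KDM5-C70 values were below all DMSO values, and it was the only gene of the 8 of which this was true for called bases, which was so in 0.459% of all windows. The mean was 2330 ± 297 bp in KDM5-C70 (SD, n = 3) and 3155 ± 289 bp in DMSO (SD, n = 5), a difference of -825 bp (exact permutation p = 0.0357). Within the shorter lists it was -293 bp and within the longer lists -1135 bp.

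Inner bases of BCL2L11 came to 1132, 1842 and 1031 in KDM5-C70 1 to 3, against 2007, 1908, 2200, 2085 and 1948 in DMSO 1 to 5. The groups did not overlap, but KDM5-C70 2 was only 66 bp below DMSO 2 (difference -695 bp, exact permutation p = 0.0357). The inner share did overlap, at 43.6%, 77.4% and 51.2% in KDM5-C70 1 to 3, against 68.4%, 67.0%, 61.5%, 63.6% and 62.1% in DMSO 1 to 5 (exact permutation p = 0.357). At this gene called and inner bases were both lower, whereas at BCL2 and BCL2L1 it was inner bases and the share whose groups did not overlap.

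The called sequence of BCL2L11 had a gap over the start site in each treated library, and no DMSO library had one. The gap was 653, 622 and 650 bp wide in KDM5-C70 1 to 3, and the 566 bp common to all 3, from 415 bp upstream to 150 bp downstream (chr2:111878076-111878641, GRCh37), were called in every DMSO library. In DMSO cells this stretch was called but mostly outside the inner segments, and the start site lay in an inner segment in 0 of 3 KDM5-C70 libraries and 0 of 5 DMSO libraries. Downstream of the gap the mark was called in all 8 libraries, up to 2564, 2229 and 1268 bp from the start in KDM5-C70 1 to 3, against 2246 to 2604 bp in the DMSO libraries. The DMSO regions were as wide as or wider than 99.5 to 99.8% of all regions in their own lists. The widest regions in KDM5-C70 1 to 3, of 2381, 2079 and 1034 bp, stood at 99.2%, 90.9% and 62.3% of their lists.

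Such layouts were rare over the whole lists. Of the 13729 merged regions called in all 8 libraries, 25 (0.182%) were continuous in every DMSO library and interrupted in every KDM5-C70 library, as BCL2L11 was, and 2 (0.0146%) were the reverse. Among the 1361 of them with at least 2000 called bp on average, as BCL2L11 has, 17 (1.25%) were so interrupted. At least 200 bp called throughout the DMSO group and in none of the treated libraries, as at BCL2L11 and BCL2L1, occurred in 0.539% of windows of the same size centred on these regions. At least 200 bp of inner sequence of that kind, as at BCL2, occurred in 0.736% of them. For both kinds of stretch the share among windows with at least 2000 called bp on average, as at BCL2L11, BCL2L1 and BCL2, was not computed.

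BBC3 encodes PUMA, a p53 target. It had 970, 807 and 617 inner bp in KDM5-C70 1 to 3, against 985, 949, 2064, 1796 and 2188 inner bp in DMSO 1 to 5. The groups touched through a single pair, KDM5-C70 1 lying 21 bp above DMSO 2 (difference -798 bp, exact permutation p = 0.0714). Within the longer lists the difference was -1304 bp, and within the shorter lists 3 bp. Called bases were 1075, 1611 and 1363 in KDM5-C70 1 to 3, against 1482, 1056, 3403, 2800 and 3400 in DMSO 1 to 5, and overlapped (exact permutation p = 0.25).

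Called sequence at BBC3 began 1586 to 1666 bp downstream of the given start in the KDM5-C70 libraries and 1590 to 1620 bp downstream in the DMSO libraries. None of the 8 libraries had a called base within 500 bp of that start. In DMSO 3 and DMSO 5 the sequence belonged to regions of 4602 and 4537 bp, and the region in DMSO 5 was the widest of its list. The widest region at BBC3 was 1075, 1523 and 1040 bp in KDM5-C70 1 to 3. The differences in this window lie more than 2 kb from the start, since within 2 kb the difference in inner bases was -42.6 bp (exact permutation p = 0.714).

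PMAIP1 encodes NOXA, the partner that binds MCL1. Its called sequence was 1532, 1755 and 1467 bp in KDM5-C70 1 to 3, against 1156, 1141, 2012, 1955 and 2044 bp in DMSO 1 to 5 (exact permutation p = 0.893). The KDM5-C70 values all lay between the pair of short DMSO lists and the 3 long ones. Inner bases ranged from 588 to 1607 in KDM5-C70 and from 720 to 1677 in DMSO (exact permutation p = 0.679). The start site was called in all 8 libraries and lay outside the inner segments in all 8.

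At the effector genes the groups overlapped in all 3 measures. BAX had 1019, 1475 and 1509 called bp in KDM5-C70 1 to 3, against 690, 675, 1372, 1256 and 1451 called bp in DMSO 1 to 5 (difference 246 bp, exact permutation p = 0.393). The upstream end differed: it lay 377, 455 and 375 bp upstream of the start in KDM5-C70 1 to 3, against 329, 279 and 309 bp upstream in DMSO 3 to 5 and 40 and 49 bp downstream in DMSO 1 and DMSO 2. A stretch of 46 bp (chr19:49457742-49457787, GRCh37) was thus called in all treated libraries and in none of the others, the only one of that kind at the 8 genes. How many of all windows hold such a stretch was not computed. Over all windows the median difference in called bases was 136 bp, and 22.7% of windows were lower in KDM5-C70. Inner bases ranged from 567 to 1254 in KDM5-C70 and from 661 to 932 in DMSO (exact permutation p = 0.607).

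BAK1 encodes the effector that sits in the outer membrane in healthy cells. It had 1393, 1722 and 1584 called bp in KDM5-C70 1 to 3, against 1407, 1398, 1692, 1665 and 1572 called bp in DMSO 1 to 5 (difference 19.5 bp, exact permutation p = 0.821). Inner bases averaged 1342 ± 157 bp in KDM5-C70 (SD, n = 3) and 1229 ± 302 bp in DMSO (SD, n = 5), with DMSO 2 lowest at 700 bp. The main region began 72 to 113 bp downstream of the start in KDM5-C70 and 50 to 86 bp downstream in DMSO. A separate region further upstream was called in 3 of 3 KDM5-C70 lists and 4 of 5 DMSO lists. It reached into the window in KDM5-C70 2 and KDM5-C70 3, 4862 and 4980 bp from the start.

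**Figure D3:**
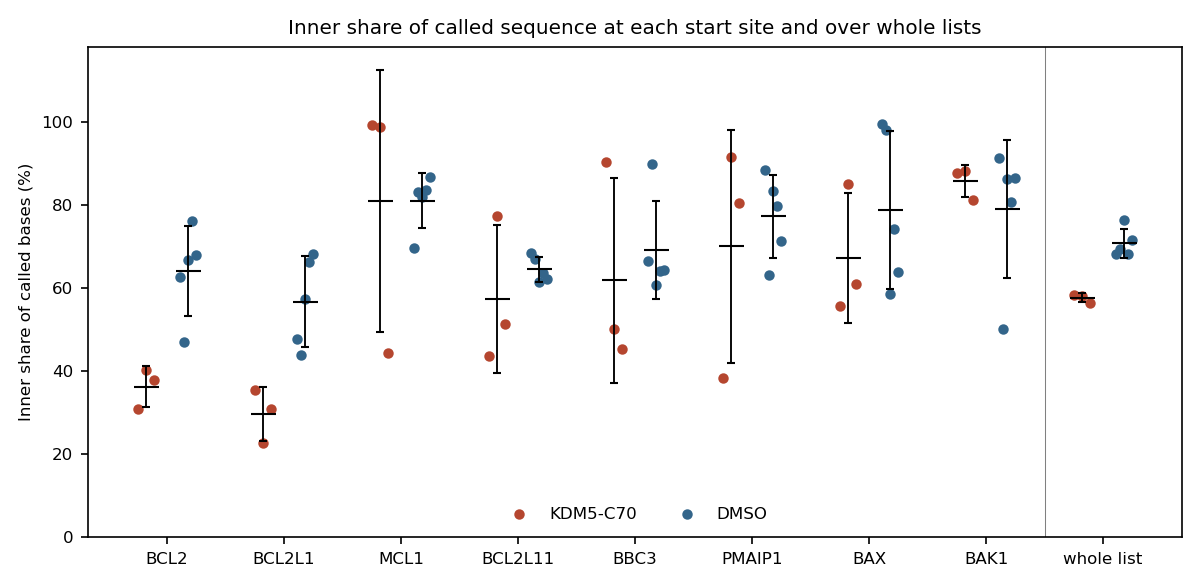
Inner share of called bases in percent for each gene and, at the right, over each whole list, 1 point per library, KDM5-C70 left of DMSO, with bars for the mean and SD. BCL2 and BCL2L1 lie between 22.6% and 40.2% in KDM5-C70, below the whole-list shares of 56.5% to 58.4%, while BAK1 lies between 81.2% and 88.3%.

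The members were ordered by how much sequence was called. In KDM5-C70 cells the mean called bases ran from 2342 at BCL2, 2330 at BCL2L11 and 2272 at BCL2L1 through 1755 at MCL1, 1585 at PMAIP1, 1566 at BAK1 and 1350 at BBC3 to 1334 at BAX. No step between neighbours in this order exceeded the larger of their SDs, and only BAK1 was above its neighbour, BBC3, in all 3 libraries. In DMSO cells the order was 3155 at BCL2L11, 2859 at BCL2L1, 2759 at BCL2, 2428 at BBC3, 2313 at MCL1, 1662 at PMAIP1, 1547 at BAK1 and 1089 at BAX. There MCL1 was above PMAIP1, and BAK1 above BAX, in 5 of 5 libraries, and other neighbours traded places between libraries. By inner bases BAK1 came first in KDM5-C70 cells, with BCL2L1 last, whereas in DMSO cells BCL2L11 came first and BAX last.

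Read by role, the 3 survival genes together had 1675, 3621 and 2916 inner bp in KDM5-C70 1 to 3, against 4141, 3145, 6651, 6157 and 6430 inner bp in DMSO 1 to 5. The 3 BH3-only genes together had 2690, 4256 and 2827 inner bp in KDM5-C70 1 to 3, against 4014, 3577, 5941, 5442 and 5595 inner bp in DMSO 1 to 5. The effectors BAX and BAK1 together had 1787, 2774 and 2208 inner bp in KDM5-C70 1 to 3, against 1971, 1361, 2261, 2277 and 2285 inner bp in DMSO 1 to 5. All 3 sums overlapped between the groups, and KDM5-C70 2 was the highest of its group in each. Within the shorter and within the longer lists, the survival and the BH3-only sums were lower in KDM5-C70 without overlap, and the effector sum was not. No share over all windows was computed for such sums, and inner bases of single windows were lower in both sets in 17.4%. Regions of the survival genes, BCL2L11 and BBC3 averaged at least 2000 called bp over the 8 libraries, and those of PMAIP1, BAX and BAK1 fewer. Whether width enters the sums by role was not tested.

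The counts over the members were set beside windows of the same size centred on the 13729 regions called in all 8 libraries. Called bases were lower in KDM5-C70 without overlap at 1 of 8 genes (BCL2L11), against 0.459% of all windows, and higher without overlap at 0 of 8, against 0.896%. Inner bases were lower without overlap at 3 of 8 genes, against 2.12% of all windows, and higher at 0 of 8, against 0.0219%. The inner share was lower without overlap at 2 of 8 genes (BCL2 and BCL2L1), against 12.4% of all windows, and higher at 0 of 8, against 0.197%. With the groups compared only within the shorter and within the longer lists, inner bases were lower in both sets at 4 of 8 genes (BCL2, BCL2L1, MCL1 and BCL2L11), against 17.4% of all windows. These 4 genes had at least 2000 called bp on average over the 8 libraries, and the share among windows of that size was not computed. KDM5-C70 1 is the only treated library in the shorter lists, so being lower there rests on it alone. The inner share was lower in both sets at 2 of 8 genes, against 26.2%.

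The median differences between KDM5-C70 and DMSO over the 8 genes were -488 called bp, -671 inner bp and -7.17 points of inner share. Over all windows they were 136 called bp, -48.5 inner bp and -10.9 points. The median inner share over the 8 genes was thus no further from 0 than that of all windows. The width of the regions bears on these comparisons, because 5 of the genes (BCL2, BCL2L1, MCL1, BCL2L11 and BBC3) had at least 2000 called bp on average over the 8 libraries. Among the 1633 windows of at least that size, called bases were lower without overlap in 1.71% and inner bases in 6.37%.

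Merged regions were also fitted together with limma on the log2 scale, with Benjamini-Hochberg adjustment over all of them. Of 13729 regions tested for called width, 0 passed the adjusted threshold (0%), with 242 at an unadjusted p under 0.05. For inner width 0 of 12816 passed (0%), with 465 at an unadjusted p under 0.05, and for the inner share 0 of 13729 (0%), with 2571. By p, BCL2L1 ranked 11th of 12816 for inner width (log2 change -1.37, SE 0.30, limma adjusted p = 0.512), BCL2 99th (-1.07, SE 0.32, adjusted p = 0.709) and BCL2L11 145th (-0.65, SE 0.21, adjusted p = 0.875). The changes in inner width of the others were -0.60 at MCL1, -0.53 at BBC3, -0.25 at PMAIP1, 0.13 at BAX and 0.12 at BAK1, against a median of -0.07 over all regions. In called width the log2 changes were -0.44 at BCL2L11, -0.44 at BCL2L1, -0.51 at MCL1 and -0.26 at BCL2 (limma adjusted p = 0.994 for each), against a median of 0.14. They were -0.47 at BBC3, 0.35 at BAX, -0.03 at BAK1 and -0.02 at PMAIP1, none past the threshold. Without KDM5-C70 1 the change in called width was -0.055 at BCL2L1, -0.019 at BCL2, 0.018 at MCL1 and -0.23 at BBC3.

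When each library was first centred on its median, which takes out a shift shared by all regions, 22 regions (0.172%) passed for inner width, all lower in KDM5-C70. The count ran from 9 without DMSO 1 to 277 without KDM5-C70 1, of which 13 were higher. The median change over all regions was then 0.02 in inner width and -0.02 in called width. BCL2L1 then had the smallest p of all 12816 regions (log2 change -1.28, limma adjusted p = 0.00278) and BCL2 the seventh (-0.98, limma adjusted p = 0.00525). In that fit both stayed past the threshold without any 1 of the 8 libraries, at adjusted p from 0.00244 to 0.0214 for BCL2L1 and from 0.00509 to 0.0323 for BCL2. This check was added after the data were examined. Without centring, neither gene passed with any 1 library left out. The smallest limma adjusted p was then 0.153 for BCL2L1 and 0.269 for BCL2, both without DMSO 2. With a term for the 2 sets of libraries and no centring, 210 regions (1.64%) passed, and the limma adjusted p was 0.00314 for BCL2L1, 0.00572 for BCL2 and 0.0503 for MCL1. With both the term and centring 211 regions (1.65%) passed, and the adjusted p was 0.000854 for BCL2L1, 0.00119 for BCL2 and 0.0484 for MCL1, the only one of these fits that MCL1 passed. BCL2L11 passed in none of these fits. With the replicate number as a block no region passed, and the log2 changes were -1.20 at BCL2L1 and -0.89 at BCL2. That fit used only libraries whose replicate number occurs in both groups, so the higher-numbered DMSO libraries were left out. Its values therefore do not show the effect of the block alone.

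Wide regions had a lower median change in inner width than the full set of regions. Among the 1337 regions of at least 2000 called bp with an inner segment in every library, the median log2 change was -0.26 and 87.4% were lower in KDM5-C70. Against these, 1.80% of regions had a more negative change than BCL2L1, 4.34% than BCL2, 14.2% than BCL2L11, 17.3% than MCL1 and 21.5% than BBC3. BCL2L1 and BCL2 were thus near the low end also among regions of their own size, and the other 3 wide genes were less so.

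**Figure D4:**
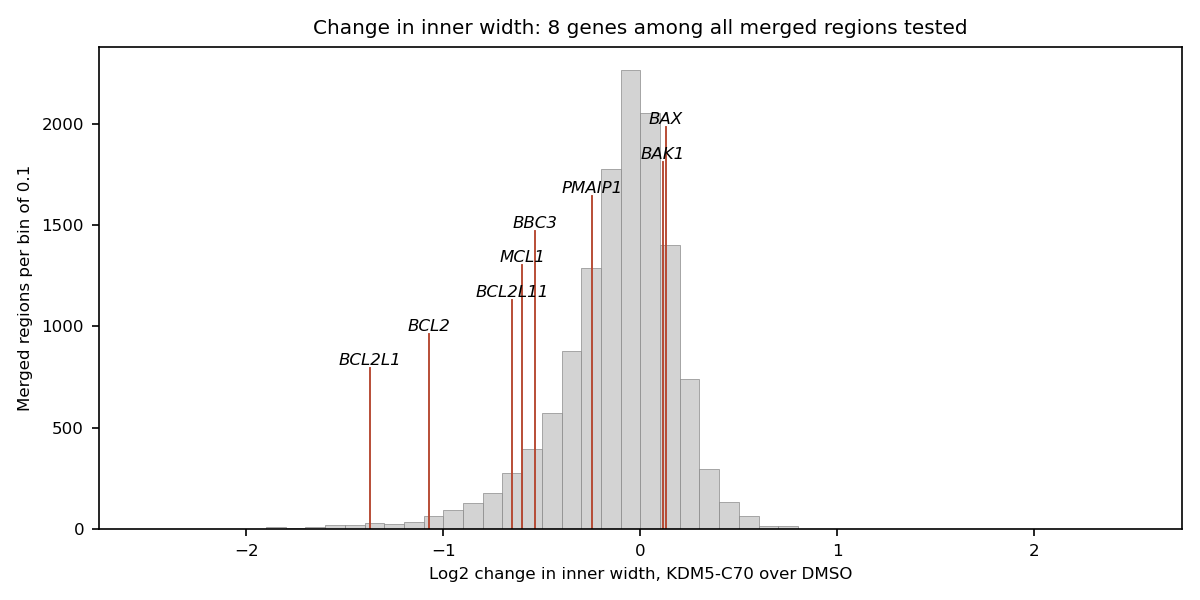
Number of merged regions by log2 change in inner width, KDM5-C70 over DMSO, for the 12816 regions with an inner segment in all 8 libraries, with the 8 genes marked. BCL2L1 at -1.37 and BCL2 at -1.07 lie in the left tail, and BAX at 0.13 and BAK1 at 0.12 lie right of the median of -0.07.

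The authors' own q-values for the regions differed between the groups at these genes and over the whole lists. With regions kept only at a -log10 q-value of at least 5, the number of the 8 windows with any called base was 1, 0 and 1 in KDM5-C70 1 to 3, against 8, 6, 6, 6 and 5 in DMSO 1 to 5. The stricter lists as a whole held 3028 of 17977, 7036 of 32133 and 3661 of 37948 regions in KDM5-C70 1 to 3. In DMSO 1 to 5 they held 13506 of 20998, 6394 of 15323, 19917 of 32376, 15641 of 30363 and 17107 of 28195. The part of the whole list that was kept was thus smaller in every KDM5-C70 library than in any DMSO library. The windows that kept called sequence in KDM5-C70 1 and KDM5-C70 3 were both that of BCL2L11. How far depth or the calling of regions enters the differences at these genes was not tested.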

How the data were processed

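H3K4me3 ChIP-seq of MM1S cells gave 8 libraries, 3 of KDM5-C70 and 5 of DMSO, grouped by GEO's labels. The submitters' processing notes name the build GRCh37 and the tools Bowtie 1.1.2, MACS2 2.1.0, HOMER 4.8 and Trim Galore 0.40. Neither the settings nor the use of a control library is given in the sources used here. For each library the authors deposited 1 list of regions, so samples were not pooled for calling. Each list gives positions in base pairs and inner blocks, and each region also has, as deposited, the -log10 of its p-value and q-value and a ratio for its enrichment. Of these authors' values, the -log10 q-value was used to filter regions and the ratio was left out. No read counts were used, so depth is unknown and counting error cannot be stated.

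Regions on chromosomes 1 to 22 and X were used. Blocks of 1 bp were left out, and the other blocks are the inner segments. Lists were merged where regions overlapped by at least 1 bp. Called bases, inner bases and inner share in each window were tested by exact permutation over 56 divisions (2-sided, smaller tail doubled). Background windows of the same size were centred on each merged region called in all 8 libraries. Regions were fitted with limma 3.58.1 in R 4.3.3 (log2 widths, or the share in percent; variance trend, no centring), adjusted after Benjamini and Hochberg, at 0.05. Windows were measured in Python 3.11.15 (scipy 1.17.1, pandas 2.3.3, numpy 2.4.6). The steps were tested on simulated data.

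All 8 members are named, and no other gene is described; further family members were not analysed here. The members, lists and tests were chosen with earlier results of these data known, and the division into shorter and longer lists was seen in these data. Centring combined with leaving out each library was added after the data were examined. The strand of each gene is textbook or RefSeq knowledge. Without a GRCh37 annotation, exons and introns are not given. Fits and tests with the replicate number as a block used only libraries whose number occurs in both groups. Alternatives were windows of 2 and 10 kb, lists kept at a -log10 q-value of 5 or more (the stricter lists), lists cut to the 15323 widest regions, centring, a term for the sets, no variance trend, regions found in 2 or more libraries of both groups (pseudocount 200 bp), the replicate number as a block, and each library left out in turn.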

Additional observations from a re-analysis of the deposited data

Results flagged for a closer look

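In the 24 sets of 5 DMSO values (8 genes, 3 measures), the highest or lowest library was checked for standing apart from the other 4, which chance alone brings about in about 1 of 20 such sets. DMSO 1 stood apart at MCL1, with an inner share of 69.5%, below the other DMSO libraries. DMSO 2 stood apart at BAK1, where it was lowest with 700 inner bp and an inner share of 50.1%, and at BBC3, where it was highest with an inner share of 89.9%. Both are libraries with short lists. Groups of 3 KDM5-C70 values were not checked in this way.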

How the results depend on the processing

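Over the alternatives, 349 limma values of the 8 genes (called width, inner width and inner share) kept direction and side of the threshold, 23 came to pass it and 38 turned direction. Of the window values 235 kept them, 63 no longer passed, 1 came to pass and 29 turned direction. Values that turned were counted only as such, among them BAK1 called and inner bases on stricter lists, which also came to pass. Most of the 63 could not pass, since the smallest exact permutation p is 0.0571 without a DMSO library, 0.0952 without a KDM5-C70 library and 0.25 with the block, and within the sets no test was made. Regions past the threshold for called width numbered 12 with the replicate block, 27 with a term for the sets and centring, and 1 on stricter lists. For inner width they numbered 22 with centring, 210 with the term for the sets, 211 with both, 1 on stricter lists, and 0 to 1 without each library. For the inner share they numbered 55 without the variance trend, 166 with the term for the sets, and 0 to 147 without each library (147 without KDM5-C70 1 and 72 without KDM5-C70 2). Only 10 regions were in all 8 stricter lists. Correlations of the deviations of same-numbered libraries were 0.367, -0.306 and 0.318, and that of KDM5-C70 1 with DMSO 2 was 0.415. Between KDM5-C70 and DMSO libraries they were positive within the shorter and within the longer lists and negative across these sets. They therefore cannot show whether replicate numbers pair the libraries. With the replicate block the inner share of MCL1 turned to 2.67 points and the called bases of PMAIP1 to 148 bp. The block setting also left out the DMSO libraries without a same-numbered KDM5-C70 library, so these turns cannot be ascribed to the block alone.

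Further turns in direction, all in measures in which the groups of that gene overlap, were these. The MCL1 inner share was 2.81 points in windows of 2 kb, 0.18 with lists of equal length, 5.29 within the sets, and from -9.33 to 18.1 without each library. The BCL2L11 inner share was 11.4 points with lists of equal length. On stricter lists BAX had -547 called bp and -430 inner bp (exact permutation p = 0.357 for each). On the same lists BAK1 had -1547 called bp and -1229 inner bp (exact permutation p = 0.0357 for each). No KDM5-C70 list kept sequence at either gene. BAK1 had -33.8 called bp in windows of 2 kb and an inner share of -4.99 points in windows of 10 kb, where that of BBC3 was 3.28 points. Without each library, inner bases ranged from -57.8 to 285.7 at BAX, from -19.2 to 174.3 at BAK1 and from -404.3 to 105.2 at PMAIP1. Called bases ranged from -58.3 to 106.2 at BAK1 and from -207.1 to 18.7 at PMAIP1. The inner share ranged from -0.46 to 9.83 points at BAK1, from -21.4 to 1.07 at BBC3 and from -17.8 to 8.75 at PMAIP1. In limma, without each library, the log2 change in called width at MCL1 ranged from -0.93 to 0.018, and that in inner width from -0.14 to 0.44 at BAX, from -0.076 to 0.19 at BAK1 and from -0.56 to 0.16 at PMAIP1; at BAK1 it was -0.018 with centring and without KDM5-C70 1. The change in called width ranged from -0.065 to 0.029 at BAK1 (0.017 with the replicate block) and from -0.14 to 0.066 at PMAIP1 (0.19 with the block). The limma inner share ranged from -0.68 to 9.62 points at BAK1 and from -14.3 to 7.85 at BBC3. With centring the inner share was 12.6 points at MCL1, 5.63 at BCL2L11, 1.16 at BAX, 11.2 at BBC3 and 5.63 at PMAIP1. With the term for the sets it was 0.22 at MCL1 and 0.40 at BBC3, and with both it was 13.4 at MCL1, 5.78 at BCL2L11, 2.59 at BAX, 13.6 at BBC3 and 4.803 at PMAIP1. The cause was not tested.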
